A study of Homo sapiens with 4 samples.

Results

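Amino acid transporters of 7 solute carrier (SLC) families were examined in clones of SW620, a human colon cancer cell line derived from a lymph node metastasis. The genes were those whose platform annotation gave a symbol of SLC1A, SLC3A, SLC6A, SLC7A, SLC36A, SLC38A or SLC43A followed by digits alone. This rule gave 56 genes of the 19777 named on the array, measured by 138 probe sets, and it used no measured difference. Each gene was read from its brightest probe set, the one with the highest mean over the 4 arrays. Of the 56 genes, 47 lay above the level filter, a mean log2 signal of 3.75 below which the dimmest 20% of all genes were left out, and 9 lay below it.

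The groups were 2 arrays of a CD133+ clone (labelled CPC1) and 2 arrays of a CD133- clone (labelled CNC1), with no drug or other agent named for either. Cells of the line were separated by magnetic sorting for CD133, a surface glycoprotein used to mark colon cancer stem cells, and plated singly, and each expanded clone was sorted for CD133 a second time before its RNA was taken. Both clones were propagated like the parental line in serum-containing medium. Each group is thus 1 clone, so that an effect of CD133 status and one of the clone cannot be told apart. Whether replicate arrays hold RNA of different cultures is not given by the labels, and p-values here reflect a spread between arrays that may be technical.

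Cells take up amino acids through carriers with overlapping substrates. SLC1A proteins carry glutamate or small neutral amino acids, SLC6A proteins use sodium and chloride to carry neutral amino acids, taurine, creatine or neurotransmitters, and SLC38A proteins carry glutamine, alanine and related amino acids with sodium. Several SLC7A proteins work only as pairs with a heavy chain of the SLC3A family, as in the CD98 complex that exchanges glutamine for leucine, and in xCT, which imports cystine for glutathione synthesis. SLC36A and some SLC38A proteins act at the lysosome, where amino acids released from protein breakdown signal to the growth kinase mTORC1. Starvation for amino acids raises many of these genes through the transcription factor ATF4, which binds the C/EBP-ATF response element.

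Of the 47 tested genes, 2 were higher and 1 was lower in CD133+ cells at a limma adjusted p under 0.05, which is 6.38% against 3.65% of all 15821 genes tested (1.31% higher and 2.34% lower). SLC38A10 rose 2.06-fold, SLC1A4 rose 1.35-fold and SLC38A6 fell, being 2.56-fold lower. The other 44 did not pass. The balance of all called genes depended on the scaling, with 207 of 577 higher as reported. Without quantile normalization 87 of 413 were higher, and after median centring 52 of 457 were. The best known tumour carriers, the CD98 pair SLC7A5 and SLC3A2, the glutamine carrier SLC1A5 and the system A carriers SLC38A1 and SLC38A2, had log2 differences between -0.045 for SLC7A5 and 0.13 for SLC38A1.

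Promoter sequences are shown for the 3 genes that passed, because they mark where these genes start and hold or lack the ATF4 target motif. They run from 100 bases before the RefSeq start to 20 bases from it onward, 5′ to 3′ on the strand of the gene (GRCh38.p14), with matches to the motif TGATGNAA on either strand in capitals. SLC38A10 lies on the minus strand at chr17:81295288-81295407 and SLC38A6 on the plus strand at chr14:60981145-60981264. SLC1A4 lies on the plus strand and has 2 listed starts, of which the one at chr2:64989299-64989418 is shown because it holds a match.
SLC38A10: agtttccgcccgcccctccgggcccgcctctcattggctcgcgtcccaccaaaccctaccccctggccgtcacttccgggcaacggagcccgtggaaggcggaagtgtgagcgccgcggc
SLC38A6: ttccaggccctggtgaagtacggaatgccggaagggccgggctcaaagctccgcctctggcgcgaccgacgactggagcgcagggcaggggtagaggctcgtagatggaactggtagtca
SLC1A4: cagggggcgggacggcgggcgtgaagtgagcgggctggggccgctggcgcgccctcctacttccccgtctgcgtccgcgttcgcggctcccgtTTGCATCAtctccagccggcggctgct

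The match in SLC1A4 is TTGCATCA, the reverse complement of TGATGCAA, and it begins 7 bases before the start. The printed windows of SLC38A10 and SLC38A6 hold no match, nor do their whole windows of 300 bases. Over these 300-base windows the motif occurred in 6 of 64 promoters of the transporters (9.38%), which belong to 42 genes, and in 3.62% of all 35116 promoters of the table. Besides SLC1A4, the genes with a match were SLC1A3, SLC1A5, SLC3A2, SLC7A1 and SLC38A1. A match is a description of these letters and no evidence of binding.

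The log2 signal ran from 2.52 to 14.57 over the 54675 probe sets of the arrays as deposited. Between the 2 CD133+ arrays 51 tested genes were 2-fold or more apart, between the 2 CD133- arrays 47 were, and between arrays of different clones 207 to 729 were. The counts of 370 and 729 both involved CD133- replicate 1. Among the 47 transporters 0 genes differed 2-fold between arrays of the same clone, and 1 to 3 differed so between clones. The epithelial keratins KRT8, KRT18 and KRT19 and the adhesion proteins EPCAM and CDH1 had log2 signals between 11.28 and 14.18. Of the other colon epithelium markers, VIL1 lay between 10.14 and 10.55, and the rest were dimmer. CDX2 lay between 6.11 and 6.37, CDX1 between 5.74 and 6.79 and CEACAM5 between 4.33 and 5.63. KRT20, a marker of mature colonocytes, stayed below the level filter. The 5 measured leukocyte markers had log2 signals between 3.55 and 4.67. The 6 fibroblast markers ran from 3.41 to 7.22, the highest being COL1A1, and the 4 endothelial ones from 2.95 to 5.90. The fibroblast range thus covered the signals of CDX1, CDX2 and CEACAM5. PROM1, which encodes CD133, had log2 signals of 8.46 and 8.73 in CD133+ cells against 3.31 and 3.35 in CD133- cells, which matches the labels. In such bulk RNA, fewer cells with a transcript and less of it per cell cannot be told apart.

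**Figure D1:**
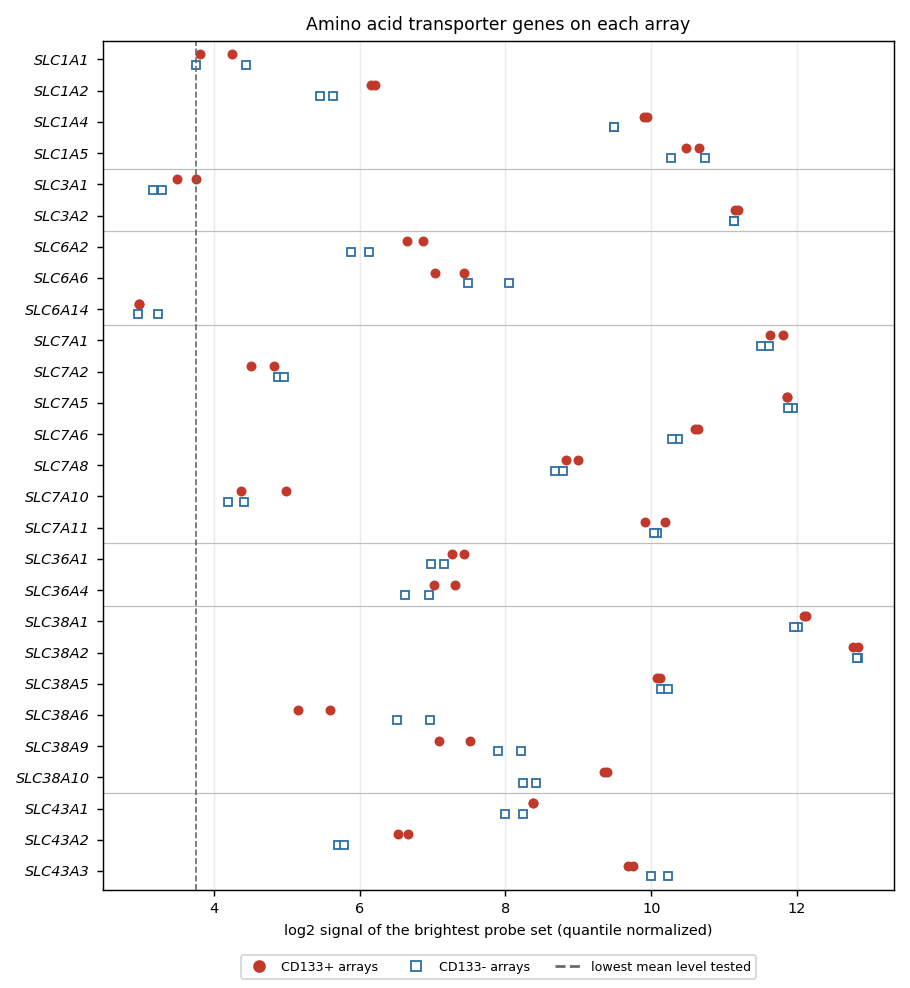
Log2 signal (x axis) of the 27 transporter genes named by rule, on each array, grouped by family from top to bottom. Filled circles are the 2 CD133+ arrays and open squares the 2 CD133- arrays, and the dashed line is the level filter of 3.75. The groups lie farthest apart in SLC38A6 and SLC38A10, and SLC3A1 and SLC6A14 lie below the filter.

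The SLC38 family held both of the largest differences, in opposite directions. SLC38A10, a member of the family whose substrates include glutamate and glutamine in mouse, had log2 signals of 9.40 and 9.35 in CD133+ cells, against 8.42 and 8.24 in CD133- cells. Both CD133+ arrays lay above both CD133- arrays, by far more than either pair differed. The means were 9.37 ± 0.035 in CD133+ and 8.33 ± 0.13 in CD133- cells (SD, n = 2 each), a log2 difference of 1.04 (SE 0.12, limma adjusted p = 0.0093). It ranked 35 by size among the 207 genes that were higher. Of its 7 probe sets, 5 shared the positive sign and separated the clones, with differences between 0.27 and 1.04, and the 2 dimmest were at -0.0044 and -0.027. With the mean over all 7 probe sets the difference was 0.37 and did not pass (adjusted p = 0.234).

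SLC38A6, a little-studied member of the same family, had log2 signals of 5.60 and 5.16 in CD133+ cells and 6.97 and 6.51 in CD133- cells. The clones did not overlap, although the arrays of each clone differed by more than those of SLC38A10. Its means were 5.38 ± 0.31 in CD133+ and 6.74 ± 0.33 in CD133- cells (SD, n = 2 each), a log2 difference of -1.36 (SE 0.25, limma adjusted p = 0.0284). It ranked 49 by size among the 370 genes that were lower, and it has 1 probe set on the array. Without CD133- replicate 1 the difference was -1.13 with an adjusted p of 0.130, and without CD133+ replicate 2 it was -1.14 with an adjusted p of 0.0576.

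SLC38A9, the lysosomal carrier that senses arginine for mTORC1, had log2 signals of 7.51 and 7.09 in CD133+ cells, against 8.21 and 7.90 in CD133- cells. The arrays separated the clones, but the difference of -0.75 (SE 0.19) did not pass (limma adjusted p = 0.0730). Its second, dim probe set had a difference of -0.56 and separated the clones too. It passed without CD133+ replicate 1 (difference -0.96, adjusted p = 0.0165), and it was at -0.60 without CD133- replicate 1.

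SLC38A1 and SLC38A2, the system A carriers that bring glutamine and alanine into growing cells, had strong signals in both clones. SLC38A2 had log2 signals of 12.84 and 12.77 in CD133+ cells and 12.84 and 12.82 in CD133- cells, so the clones overlapped. Its log2 difference was -0.022 (SE 0.068, adjusted p = 0.884), with a 95% interval in the limma fit of -0.18 to 0.13. SLC38A1 had 12.12 and 12.09 in CD133+ against 12.01 and 11.96 in CD133- cells, a difference of 0.13 (SE 0.071, adjusted p = 0.356). Its other probe sets were at 0.21 and 0.39, both without overlap, and at -0.11 with overlap. With centred arrays the difference of SLC38A1 was 0.039. SLC38A5, a system N carrier of glutamine and glycine, was at -0.081 (SE 0.091, adjusted p = 0.651). Of the 9 tested SLC38A genes 4 had a positive and 5 a negative difference, with a family median of -0.022. SLC38A4 and SLC38A11 lay below the level filter.

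Within the SLC1 family, SLC1A4 (ASCT1), an exchanger of alanine, serine, cysteine and threonine, was higher in CD133+ cells. Its log2 signals were 9.95 and 9.89 in CD133+ cells and 9.48 and 9.49 in CD133- cells, with no overlap. The means were 9.92 ± 0.038 in CD133+ and 9.49 ± 0.0049 in CD133- cells (SD, n = 2 each), a log2 difference of 0.43 (SE 0.094, limma adjusted p = 0.0464). Of its 5 probe sets 4 were positive and separated the clones, with differences from 0.20 to 0.63, and the dimmest was at -0.19 with overlap. The call was close to the threshold and was lost under 9 of the 12 other settings, with an adjusted p of 0.125 in the values as deposited, 0.293 without CD133- replicate 1, 0.131 without CD133- replicate 2 and 0.0812 without CD133+ replicate 1. The difference itself stayed between 0.30 and 0.46 under all 12.

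SLC1A5 (ASCT2), the glutamine exchanger of many tumours, had log2 signals of 10.48 and 10.65 in CD133+ cells, inside the range of 10.27 to 10.74 in CD133- cells. Its difference was 0.060 (SE 0.15, adjusted p = 0.852, 95% interval -0.28 to 0.40). SLC1A2 (EAAT2), the main glutamate carrier of astrocytes, had 6.16 and 6.21 in CD133+ against 5.46 and 5.64 in CD133- cells. Its difference of 0.64 (SE 0.21) separated the clones and did not pass (adjusted p = 0.139), and its other 5 probe sets, all below the level filter, had differences between -0.048 and 0.19. SLC1A1 (EAAT3), a glutamate and cysteine carrier of the gut, lay near the filter at means of 4.03 ± 0.31 in CD133+ and 4.10 ± 0.48 in CD133- cells (SD, n = 2 each). All 7 members of the family were tested, 6 of them with a positive difference (85.7%, against 58.5% of all genes). With centred arrays 4 of 7 were positive (57.1%, against 43.3% of all genes). Without CD133- replicate 1 it was again 4 of 7, against 54.1% of all genes. The arrays separated the clones in 2 of the 7 (28.6%, against 51.6% of all genes).

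**Figure D2:**
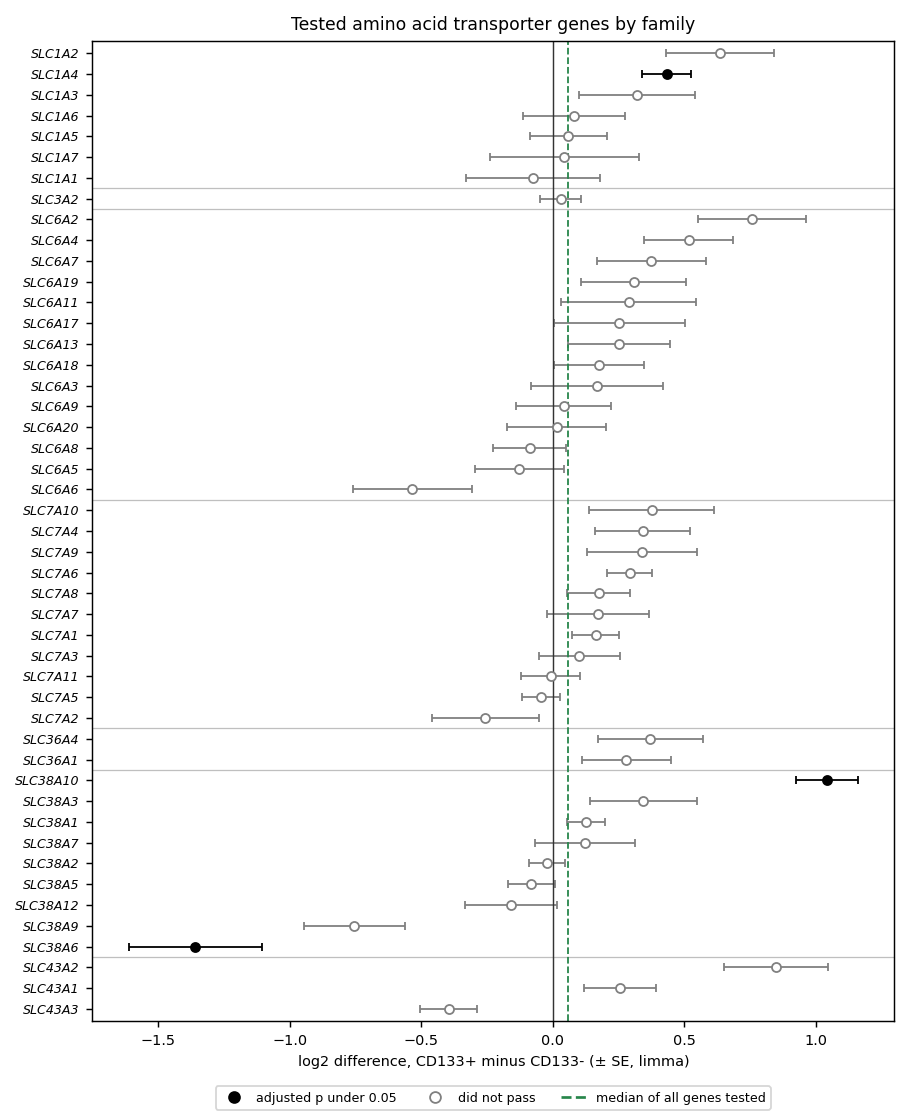
Log2 difference, CD133+ minus CD133- (x axis, ± SE from limma), of the 47 tested transporters, ordered by size within each family. Filled points passed at an adjusted p under 0.05 (SLC38A10, SLC1A4 and SLC38A6), open points did not, and the dashed line is the median of 0.058 over all genes tested.

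The SLC7 carriers and their SLC3 heavy chains had small differences, and 0 of 12 tested genes passed in limma, with 1 SLC7 gene, SLC7A6, at an unadjusted p under 0.05, which 20.6% of all genes had. SLC7A5 (LAT1), the leucine and large neutral amino acid carrier, had log2 signals of 11.86 and 11.86 in CD133+ and 11.94 and 11.87 in CD133- cells. Its difference was -0.045 (SE 0.073, adjusted p = 0.764) with a 95% interval of -0.21 to 0.12. Its partner SLC3A2 (CD98 heavy chain) had 11.15 and 11.19 in CD133+ against 11.14 on both CD133- arrays, a difference of 0.031 (SE 0.077, adjusted p = 0.855). Both chains thus had strong signals in both clones, with differences smaller than their standard errors. SLC7A6 (y+LAT2), another partner of SLC3A2 that exchanges arginine for glutamine, had 10.64 and 10.60 in CD133+ and 10.36 and 10.28 in CD133- cells. The clones did not overlap, and its difference of 0.29 (SE 0.086) did not pass (adjusted p = 0.108). Its other 2 probe sets were at 0.064 and 0.074, and the mean over all 3 was 0.14. With centred arrays the difference was 0.18.

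SLC7A8 (LAT2), a neutral amino acid exchanger of the basolateral membrane, was at 0.18 (SE 0.12, adjusted p = 0.443), and SLC7A1 (CAT1), the main arginine and lysine carrier, at 0.16 (SE 0.089, adjusted p = 0.340). The difference of SLC7A8 was 0.082 in the deposited values and 0.0028 with centred arrays. That of SLC7A1 was 0.080 with centred arrays and 0.073 without CD133+ replicate 2. SLC7A2 (CAT2), a second carrier of cationic amino acids, had the most negative difference of the family, -0.26 (SE 0.20, adjusted p = 0.508). It was -0.099 without CD133+ replicate 1, -0.41 without CD133+ replicate 2 and -0.092 over the mean of its 3 probe sets. SLC7A10 (Asc-1), a carrier of small neutral amino acids, had the most positive, 0.38 (SE 0.24, adjusted p = 0.409). Its arrays overlapped between the clones, and leaving out CD133+ replicate 1 gave 0.068, where leaving out CD133+ replicate 2 gave 0.68. The kidney and gut heavy chain SLC3A1 (rBAT) was too dim to be tested, with mean log2 signals of 3.63 ± 0.18 in CD133+ and 3.23 ± 0.088 in CD133- cells (SD, n = 2 each).

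SLC7A11 (xCT), the cystine importer, gave different readings from its 3 probe sets. The brightest had log2 signals of 10.18 and 9.91 in CD133+ cells, on either side of the 10.07 and 10.04 in CD133- cells, a difference of -0.0076 (SE 0.11, adjusted p = 0.977). The next had 8.61 and 9.02 in CD133+ against 9.09 and 9.50 in CD133- cells, a difference of -0.48. The dimmest had 5.27 and 4.45 in CD133+ against 5.72 and 5.72 in CD133- cells, a difference of -0.86. The other 2 probe sets thus separated the clones, with lower signals in CD133+ cells, and the brightest did not. Over the 3 probe sets the mean difference was -0.45.

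**Figure D3:**
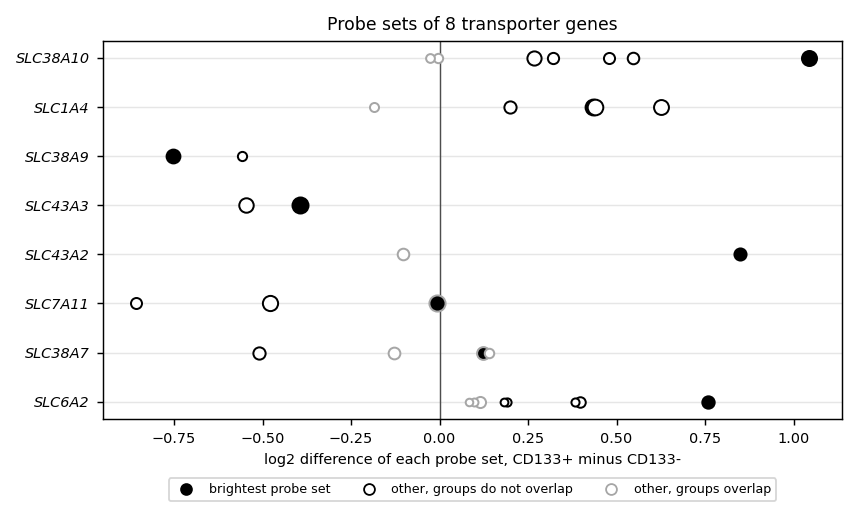
Log2 difference, CD133+ minus CD133- (x axis), of each probe set of 8 transporter genes, with larger circles for brighter probe sets. Filled circles are the brightest probe set of a gene, and open circles the others, in black where the clones do not overlap. SLC38A10 and SLC1A4 had most probe sets on the positive side, and both probe sets of SLC43A3 and SLC38A9 were negative. The 3 readings of SLC7A11 were negative but differed in size, and those of SLC43A2 differed in sign. SLC38A7 had 2 positive and 2 negative probe sets, from -0.51 to 0.14, with the brightest at 0.12.

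In the SLC43 family of sodium-independent carriers all 3 genes separated the clones, as 51.6% of all genes did, and 0 passed in limma. An unadjusted p under 0.05 was found for 2 of the 3, against 20.6% of all genes. SLC43A2 (LAT4), a carrier of leucine, phenylalanine and methionine, had log2 signals of 6.67 and 6.53 in CD133+ cells and 5.71 and 5.79 in CD133- cells. Its difference of 0.85 (SE 0.20) was larger than the spread of either clone and missed the threshold (adjusted p = 0.0597). Its second probe set had a difference of -0.10 with overlap between the clones, and the mean of both was 0.37. SLC43A3, which carries purine nucleobases rather than amino acids, had 9.76 and 9.68 in CD133+ and 10.00 and 10.23 in CD133- cells, a difference of -0.39 (SE 0.11, adjusted p = 0.0935), and its second probe set was at -0.55 without overlap. SLC43A1 (LAT3), a leucine carrier described in prostate cancer, was at 0.26 (SE 0.14, adjusted p = 0.331). It was at 0.12 in the deposited values, 0.041 with centred arrays and 0.13 without CD133- replicate 1.

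Of the SLC36 family, amino acid carriers of the lysosome and the gut brush border, 2 genes were measured. SLC36A1 (PAT1) had log2 signals of 7.26 and 7.43 in CD133+ against 6.97 and 7.16 in CD133- cells, a difference of 0.28 (SE 0.17, adjusted p = 0.390). SLC36A4 (PAT4), a carrier of proline and tryptophan, had 7.31 and 7.01 in CD133+ against 6.96 and 6.63 in CD133- cells, a difference of 0.37 (SE 0.20, adjusted p = 0.335). Both differences depended on the scaling, at 0.10 for SLC36A1 and 0.20 for SLC36A4 in the deposited values and at 0.023 and 0.12 with centred arrays. SLC36A1 was at 0.19 without CD133- replicate 1. SLC36A4 was at 0.22 without CD133+ replicate 1, 0.21 without CD133- replicate 2 and 0.15 with the mean of its 2 probe sets. Both genes separated the clones, as 51.6% of all genes did (30.4% higher and 21.2% lower). For SLC36A4 the nearest arrays were close, at 7.01 in CD133+ and 6.96 in CD133- cells. Neither gene passed in limma or had an unadjusted p under 0.05, which 20.6% of all genes had.

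The SLC6 family, with 18 genes, had 14 tested and 0 that passed in limma, with 3 at an unadjusted p under 0.05 (21.4%, against 20.6% of all genes). SLC6A6, the taurine carrier, had log2 signals of 7.43 and 7.04 in CD133+ cells and 8.05 and 7.49 in CD133- cells, a difference of -0.53 (SE 0.23, adjusted p = 0.228). The clones were barely apart, the higher CD133+ array lying just under the lower CD133- array. The difference of SLC6A6 was -0.34 without CD133+ replicate 2, -0.25 without CD133- replicate 1 and -0.81 without CD133- replicate 2. Its other 4 probe sets lay between -0.066 and 0.064, and the mean over all 5 was -0.13. SLC6A2, the noradrenaline carrier of sympathetic neurons, had 6.87 and 6.66 in CD133+ and 5.89 and 6.12 in CD133- cells, a difference of 0.76 (SE 0.20, adjusted p = 0.0892). All 8 of its probe sets were positive, from 0.083 to 0.76, with a mean of 0.28. Of these 8, 3 lay above the level filter, and 5 separated the clones. SLC6A14, a broad neutral and cationic carrier of the colon that is raised in many colon tumours, lay below the level filter, at 2.97 and 2.97 in CD133+ and 2.97 and 3.23 in CD133- cells. The 22 tested transporters not named by rule lay between -0.16 and 0.52, with adjusted p of 0.141 or more. The 9 untested genes had log2 signals between 2.97 and 3.82 on the arrays.

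Across the 47 tested genes 34 differences were positive (72.3%, against 58.5% of all genes), and the median was 0.17, against 0.058 for all genes. The arrays of the clones did not overlap in 30 genes (63.8%, against 51.6% of all genes), 21 higher and 9 lower in CD133+ cells, where all genes had 30.4% higher and 21.2% lower. Centring each array on its median moved the median of all genes to -0.050, a shift of more than 0.1. It left 30 of 47 transporters positive (63.8%, against 43.3% of all genes). Without CD133- replicate 1, 29 of 47 were positive (61.7%, against 54.1% of all genes). Relative to the median of all genes, that of the transporters was higher by 0.11 with quantile normalization and by 0.12 in the deposited values. The centred values give the same 0.12 by construction, because centring shifts all genes of an array alike. Without CD133+ replicate 2, with quantile normalization, the median of the transporters was higher by 0.062. By family the median difference was 0.080 for SLC1A, 0.21 for SLC6A, 0.17 for SLC7A, 0.33 for SLC36A, -0.022 for SLC38A and 0.26 for SLC43A. Without CD133- replicate 1 the SLC6A median was 0.0048, with 7 of 14 genes positive in place of 11. The medians of SLC36A and SLC43A depended on the scaling. That of SLC36A was 0.15 in the deposited values and 0.070 with centred arrays, and that of SLC43A was 0.12 in the deposited values, 0.041 with centred arrays and 0.13 without CD133- replicate 1. With centred arrays SLC7A was at 0.11 and SLC38A at -0.11. For SLC1A the median lay between 0.094 and 0.38 when 1 array was left out, and it was 0.066 with centred arrays. The positive sign of the single tested SLC3A gene, SLC3A2, turned to -0.044 with centred arrays.

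The genes beside the transporters on their chromosomes were read as well, to set each difference against its surroundings. For each gene the 20 nearest tested genes were taken, 10 on either side in gene order. The neighbours of SLC38A10 near the end of chromosome 17 had a positive difference in 20 of 20 genes, with a median of 0.41. A neighbour median this high or higher was found for 0.66% of the 15309 genes with 20 neighbours, and 20 positive neighbours for 0.405%. Nearby genes share most of their neighbours, so these shares and that of SLC38A9 below do not count independent stretches. SLC38A10 lay 0.63 above its neighbours. In the deposited values and in the centred values 18 of the 20 were positive, with medians of 0.29 and 0.21, and without CD133- replicate 1 the count was 17 and the median 0.24, and without CD133+ replicate 2 they were 17 and 0.36. SLC38A9 on chromosome 5 had 2 of 20 neighbours positive, with a median of -0.57, and a median this low or lower was found for 0.947% of genes. The difference of SLC38A9 minus that median was -0.18. It came to -0.0079 without CD133- replicate 1, -0.012 without CD133+ replicate 2 and -0.38 with either of the other 2 arrays left out, and to -0.32 in the deposited values. The neighbours of SLC38A6 on chromosome 14 had a median of 0.088 and those of SLC1A4 on chromosome 2 one of -0.18, both opposite in sign to the gene itself. For SLC38A6 that sign turned with scaling, the neighbours' median being -0.031 in the deposited and -0.11 in the centred values. The part of these neighbourhoods in the differences of SLC38A10 and SLC38A9 was not tested.

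**Figure D4:**
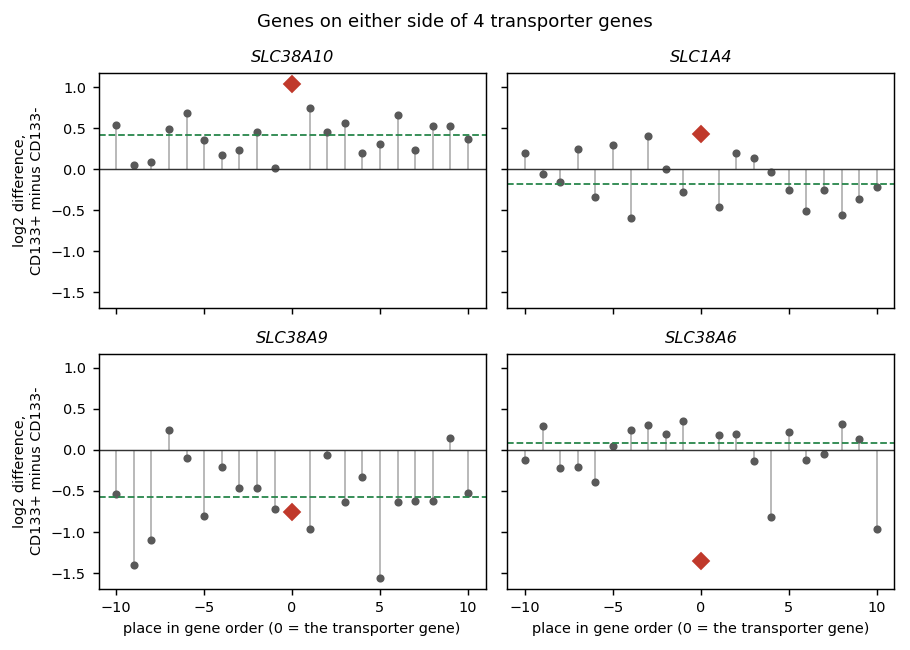
Log2 difference, CD133+ minus CD133- (y axis), of SLC38A10, SLC1A4, SLC38A9 and SLC38A6 (diamonds) and of the 10 tested genes on either side of each in gene order (circles). The dashed lines are the medians of the 20 neighbours, 0.41 for SLC38A10, -0.18 for SLC1A4, -0.57 for SLC38A9 and 0.088 for SLC38A6.

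Genes that act with the transporters were read from the same fit in 4 lists, of which 76 different genes were tested and 3 were higher and 1 lower in CD133+ cells. This is 5.26%, against 3.65% of all genes (1.31% higher and 2.34% lower). Of 16 genes of the amino acid stress response 2 were higher and 0 lower, the median being 0.10. ATF3, which encodes a stress-induced transcription factor, was at 0.81 (SE 0.14, limma adjusted p = 0.0225), and SESN2, a leucine sensor of the mTORC1 pathway, was at 0.72 (SE 0.11, adjusted p = 0.0180). Both kept their sign in all 12 other settings. SESN2 lost its call without CD133- replicate 1 (adjusted p = 0.0811), without CD133- replicate 2 (adjusted p = 0.0535), in the deposited values (adjusted p = 0.0539), with centred arrays (0.57, adjusted p = 0.113) and without the variance trend (adjusted p = 0.0993). ATF3 lost its call without CD133- replicate 2 (adjusted p = 0.0522), with centred arrays (adjusted p = 0.0598), without the trend (adjusted p = 0.125) and when its 3 probe sets were averaged (0.47, adjusted p = 0.266). CHAC1, a glutathione-degrading enzyme induced by ATF4, was at 0.70 (SE 0.17, adjusted p = 0.0682). ATF4 itself was at 0.012 and ASNS at 0.11, both with overlap between the clones. DDIT3 was at -0.14, TRIB3 at -0.18 and STC2 at -0.14, without overlap, and none of these passed. Of the 16 genes 11 were positive and 5 negative, where 58.5% of all genes were positive. The clones did not overlap in 6 that were higher and 5 that were lower, against 30.4% and 21.2% of all genes. EIF2AK4 (GCN2), the kinase that senses uncharged tRNA, was at -1.04 (SE 0.28) and did not pass (adjusted p = 0.0871). It passed without CD133+ replicate 2 (-1.43, adjusted p = 0.0207), was at -0.65 without CD133+ replicate 1 (adjusted p = 0.287) and at -0.56 with the mean of its 2 probe sets.

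Of 25 tested genes of amino acid sensing by mTORC1, SESN2 was the 1 that passed, and the median was 0.012. CASTOR2, a relative of the arginine sensor, was at 0.49 (SE 0.18, adjusted p = 0.172), and NPRL3, a subunit of the GATOR1 inhibitor complex, at -0.48 (SE 0.16, adjusted p = 0.157), with 1 of its 4 probe sets of that sign. TFEB, the lysosomal transcription factor, was at 0.47 (SE 0.20, adjusted p = 0.234). TFEB was at 0.24 with centred arrays and 0.29 without CD133- replicate 1, CASTOR2 at 0.25 with centred arrays, and NPRL3 at -0.72 with centred arrays. Of 23 tested enzymes of amino acid synthesis and breakdown, CBS, cystathionine beta-synthase, was higher at 0.55 (SE 0.12, adjusted p = 0.0496), 0 were lower, and the median was 0.075. Its call was lost under 9 of the 12 other settings, with an adjusted p between 0.0523 and 0.167 when any 1 array was left out. ASS1, argininosuccinate synthase, was at -0.32 (SE 0.076, adjusted p = 0.0629), PYCR1, of proline synthesis, at 0.38 (SE 0.10, adjusted p = 0.0836), and ALDH18A1, the first enzyme of that route, at -0.36 (SE 0.097, adjusted p = 0.0853).

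Among 14 tested amino acid carriers outside the 7 families, SLC25A12, the mitochondrial aspartate and glutamate carrier on chromosome 2, was lower, and 0 were higher, with a median of 0.0065. Its log2 signals were 6.89 and 6.58 in CD133+ cells and 7.64 and 7.72 in CD133- cells, a difference of -0.95 (SE 0.18, adjusted p = 0.0288). The call was lost without CD133+ replicate 2 (adjusted p = 0.0613), CD133- replicate 1 (adjusted p = 0.119) or CD133- replicate 2 (adjusted p = 0.0756), and without the trend (adjusted p = 0.0824). SLC25A29, a mitochondrial carrier of basic amino acids, was at 0.72 (SE 0.16, adjusted p = 0.0541), with all 4 probe sets positive. SLC66A1, a lysosomal carrier of cationic amino acids, was at 0.49 (SE 0.18, adjusted p = 0.183), and MFSD12, a lysosomal and melanosomal carrier of cysteine, at 0.26 (SE 0.14, adjusted p = 0.315). MFSD12 was at 0.10 in the deposited values and 0.022 with centred arrays, SLC66A1 at 0.26 and SLC25A29 at 0.48 with centred arrays.

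**Figure D5:**
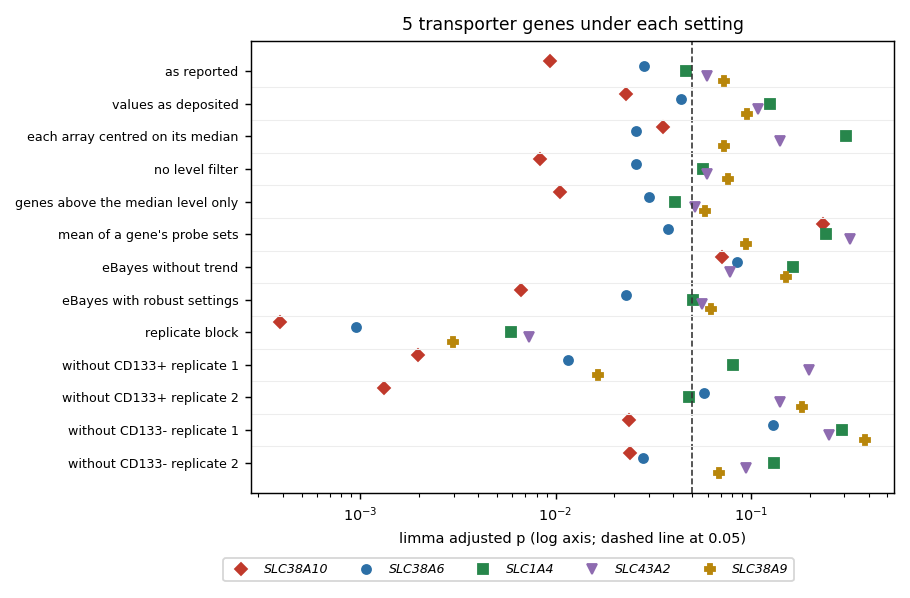
Limma adjusted p (x axis, log scale) of 5 transporters as reported and under each of the 12 other settings, with a dashed line at 0.05. SLC38A10 passed under 10 of the 12, SLC38A6 under 9 and SLC1A4 under 3, and SLC43A2 and SLC38A9 lay beyond the line as reported.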

How the data were processed

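The deposited values were log2 signals, 1 per probe set and array, as their range shows, made with Affymetrix Expression Console per the submitters' processing notes. The background correction, normalization and summarisation method, and the software version, are not given in the sources used here. All 4 value columns belonged to samples of the series. The 62 control probe sets were left out and the arrays quantile normalized, because the deposited medians spread by 0.144. The platform annotation named 1 gene for 41091 probe sets, several for 1801 and none listed for 11721. All 56 transporters matched the RefSeq table (GRCh38.p14) by gene ID. Genes were tested with limma 3.58.1 in R 4.3.3 (lmFit, eBayes with trend, Benjamini-Hochberg over 15821 genes). An exact permutation test (two-sided) of 2 against 2 arrays has 0.333 as its smallest p. The calls therefore rest on limma's shared variance (prior degrees of freedom 6.17), and the number of arrays limits the precision. Differences are CD133+ minus CD133-, and ± is the SD.

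Genes named were all transporters that passed, the largest positive and negative of each family, and 20 carriers chosen for their roles. In the other lists they were those that passed and up to 4 with the smallest p. For the stress response ATF4, ASNS, DDIT3, TRIB3 and STC2 are given besides, to show genes of either direction. Members and lists were chosen with earlier results of these data known. The 12 alternatives covered scaling, level filter, probe sets, variance model, the replicate number as a block and leaving out each array. On simulated data of 15821 genes the same fit recovered 97% of 100 genes changed by a log2 difference of 1. The simulation pulled the SD of each gene towards the median SD and took the changed genes from above the level filter. Noisy genes were thus less noisy in it than measured, so the 97% is not a recovery rate for the measured genes. Smaller changes were not simulated, so this share does not tell how many of them the fit would miss. Most transporters had smaller differences. In the measured data a difference near 1 did not always pass. SLC38A10 passed at 1.04 (limma adjusted p = 0.0093), and EIF2AK4 did not at -1.04 (limma adjusted p = 0.0871).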

Additional observations from a re-analysis of the deposited data

How the results depend on the processing

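SLC38A10 kept its direction in all 12 alternatives, as did SLC38A6 and SLC1A4. SLC38A10 lost its call with the mean of probe sets (0.37, adjusted p = 0.234) and without the variance trend (adjusted p = 0.0712), and SLC38A6 lost its call without the trend (adjusted p = 0.0846) and without CD133+ replicate 2 or CD133- replicate 1. With the mean of probe sets 247 of all genes, 1 transporter (SLC38A6) and 2 other amino acid genes passed. Without the trend these counts were 12, 0 and 0, with an unadjusted p under 0.05 in 10 of 47 transporters (21.3%), 17 of 76 other amino acid genes and 19.4% of all genes. Leaving out 1 array at a time gave 124 to 706 of all genes, 1 to 3 transporters and 0 to 7 other amino acid genes, with the lowest of the first 2 counts without CD133- replicate 1, and the 0 without CD133- replicate 2 (18 at an unadjusted p under 0.05). The other amino acid genes that passed were 1 with centred arrays and 2 without quantile normalization, against 4 as reported. With the replicate number as a block 3030 of all genes, 11 transporters and 21 other amino acid genes passed. The deviations of same-numbered arrays correlated at 0.43 across genes, but the labels give the number no meaning, so no pairing was assumed. Signs turned in these differences, which did not pass as reported. SLC1A1 was 0.0064 as deposited, SLC1A5 -0.053 and SLC3A2 -0.044 with centred arrays, and NPRL3 0.10 with the mean of probe sets. With 1 array left out, SLC1A1 ranged from -0.42 to 0.27, SLC1A5 from -0.17 to 0.29, SLC7A11 from -0.14 to 0.13 and SLC38A2 from -0.056 to 0.012. The causes were not tested. The median standard error of the transporters was 0.19, with 2 arrays per clone.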
